A study of Mus musculus with 24 samples.

Results

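Twist1, Twist2, Lhx2, Lhx9, Nr2f1 and Nr2f2 are 6 transcription factor genes of embryonic mesenchyme, taken by name from 21887 mouse protein-coding genes. They were selected on the H3K27ac peaks around them in the same lists, with earlier results of these data known. Every H3K27ac peak from 200 kb before to 200 kb after each gene body was collected. The 6 windows held 61 to 63 peaks in 3 of the 4 peak lists and 53 in the Sox9null-labelled list. Merged over the lists, they made 92 regions of 49361 in the genome. Their peaks and covered lengths are therefore given as a description and carry no test.

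H3K27ac is an acetylation of histone H3 that marks active promoters and enhancers. It was measured by ChIP-seq (sequencing of DNA bound to immunoprecipitated chromatin) in mouse limb buds. There were 4 groups with 1 library each: control E11.5, control E12.5, Sox9null E11.5 and Sox9cKO E12.5. Sox9 is the transcription factor required for cartilage formation, and the labels name no allele, Cre driver, strain or number of embryos and do not say whether fore- or hindlimbs were taken. Sox9null and Sox9cKO were sampled at different stages, so kind of deficiency and stage cannot be told apart.

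The file names of the 2 Sox9-deficient lists contradict their sample titles: each carries the genotype and stage of the other. Titles were followed here, which gives the Sox9null-labelled list and the Sox9cKO-labelled list, and comparisons over the whole windows are given both ways, while those of gene lists are given by label alone. No value has a replicate, no difference was tested, and every value describes these libraries. Unless stated, 4 values stand in this order: E11.5 control, E12.5 control, Sox9null-labelled, Sox9cKO-labelled. The score rank is the percentile of a peak's score within its own list, with 100 the highest.

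Twist1 and Twist2 are basic helix-loop-helix (bHLH) factors that bind DNA at E-boxes as dimers, and Twist factors are known to hold mesenchymal cells back from skeletal differentiation. Lhx2 and Lhx9 are LIM-homeodomain factors of the distal limb mesenchyme, which together with Lmx1b take part in the exchange of signals between the outer ridge and the mesenchyme during limb outgrowth. Nr2f1 and Nr2f2 (COUP-TFI and COUP-TFII) are orphan nuclear receptors, and Nr2f2 is also known for its part in the identity of veins.

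All 6 genes matched the RefSeq promoter table of build GRCm38.p6 (mm10), with 8 start sites. A peak lay over 7 of them in every list, and Nr2f1 start site 2, an internal start, had none in any list. Over all genes with a start site, 51.3% to 56.9% had a peak over one. The 250 bases upstream of 6 of these start sites are printed 5′ to 3′ on the strand of the gene. They are start site 1 of 5 genes, with both starts of Nr2f1 because 1 lies under a peak and the other does not. The Lhx9 site lies inside the annotated gene. Capitals mark matches on either strand to CANNTG (the E-box), ACAAAG and AACAAT (core letters bound by SOX factors), TAATTA and TAATTG (homeodomain letters) and AGGTCA (the nuclear receptor half-site). CAATTG, a form of the E-box, differs from TAATTG in its leading letter.
Twist1, chr12:33957421-33957670, plus strand: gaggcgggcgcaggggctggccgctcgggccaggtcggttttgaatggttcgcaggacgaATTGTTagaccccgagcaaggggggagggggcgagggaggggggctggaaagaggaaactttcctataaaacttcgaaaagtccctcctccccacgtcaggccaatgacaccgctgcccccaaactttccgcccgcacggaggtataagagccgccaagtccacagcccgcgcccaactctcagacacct
Twist2, chr1:91801211-91801460, plus strand: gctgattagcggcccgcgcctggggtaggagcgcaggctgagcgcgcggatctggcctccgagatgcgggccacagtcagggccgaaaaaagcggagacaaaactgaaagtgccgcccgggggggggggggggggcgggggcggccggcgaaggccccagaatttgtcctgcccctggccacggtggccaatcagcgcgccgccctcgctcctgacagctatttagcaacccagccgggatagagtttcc
Lhx9, chr1:138842445-138842694, minus strand: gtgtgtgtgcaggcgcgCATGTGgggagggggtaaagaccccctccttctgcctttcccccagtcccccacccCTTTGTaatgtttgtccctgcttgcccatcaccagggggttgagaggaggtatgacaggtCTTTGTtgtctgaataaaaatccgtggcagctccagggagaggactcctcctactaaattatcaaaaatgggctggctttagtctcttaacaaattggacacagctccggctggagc
Nr2f1 start site 1, chr13:78198874-78199123, minus strand: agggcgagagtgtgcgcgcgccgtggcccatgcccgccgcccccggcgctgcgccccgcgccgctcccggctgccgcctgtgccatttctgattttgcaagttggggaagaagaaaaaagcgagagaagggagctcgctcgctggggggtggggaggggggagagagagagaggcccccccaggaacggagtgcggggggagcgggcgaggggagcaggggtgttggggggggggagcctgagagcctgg
Nr2f1 start site 2, chr13:78196450-78196699, minus strand: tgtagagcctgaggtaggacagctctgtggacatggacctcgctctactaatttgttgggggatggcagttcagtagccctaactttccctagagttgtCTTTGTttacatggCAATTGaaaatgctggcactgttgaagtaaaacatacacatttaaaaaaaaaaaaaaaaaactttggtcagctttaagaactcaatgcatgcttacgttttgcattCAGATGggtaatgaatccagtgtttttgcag
Nr2f2, chr7:70366747-70366996, minus strand: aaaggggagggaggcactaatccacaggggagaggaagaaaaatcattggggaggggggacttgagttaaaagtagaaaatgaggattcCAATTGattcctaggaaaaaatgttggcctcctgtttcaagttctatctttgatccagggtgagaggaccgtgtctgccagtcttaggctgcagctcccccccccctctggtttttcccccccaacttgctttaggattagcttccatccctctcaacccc

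The Twist1 window held 1 AACAAT match on the minus strand, 190 bases upstream of the start, a pattern found in 8.22% of 21263 promoter windows of the same length. The Lhx9 window held 2 ACAAAG matches, 177 and 117 bases upstream, and Nr2f1 start site 2 held 1, against 14.9% of all windows with any. E-boxes were found in the windows of Lhx9, Nr2f2 and Nr2f1 start site 2, and 62.8% of all windows have one. TAATTA (4.31% of windows), TAATTG (6.28%) and AGGTCA (12.8%) were in none of the 8. A match is a description of letters and says nothing of binding.

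Base composition divided the promoters further. GC content was 62.4% at Twist1, 68.8% at Twist2, 72.8% and 68.4% at Lhx2 start sites 1 and 2, and 72% at Nr2f1 start site 1. It was 53.6% at Lhx9, 50% at Nr2f2 and 39.6% at Nr2f1 start site 2, beside a median of 55.6% over all windows. CpG pairs numbered 18 to 25 in the 5 GC-rich windows and 4, 1 and 2 in the other 3, with a median of 10 over all. The CpG-poor window of Lhx9 lay at the start under its broad peak and that of Nr2f2 at the start under a narrower, separate peak, both described next, while Nr2f1 start site 2 was CpG-poor and had no peak over it.

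**Figure D1:**
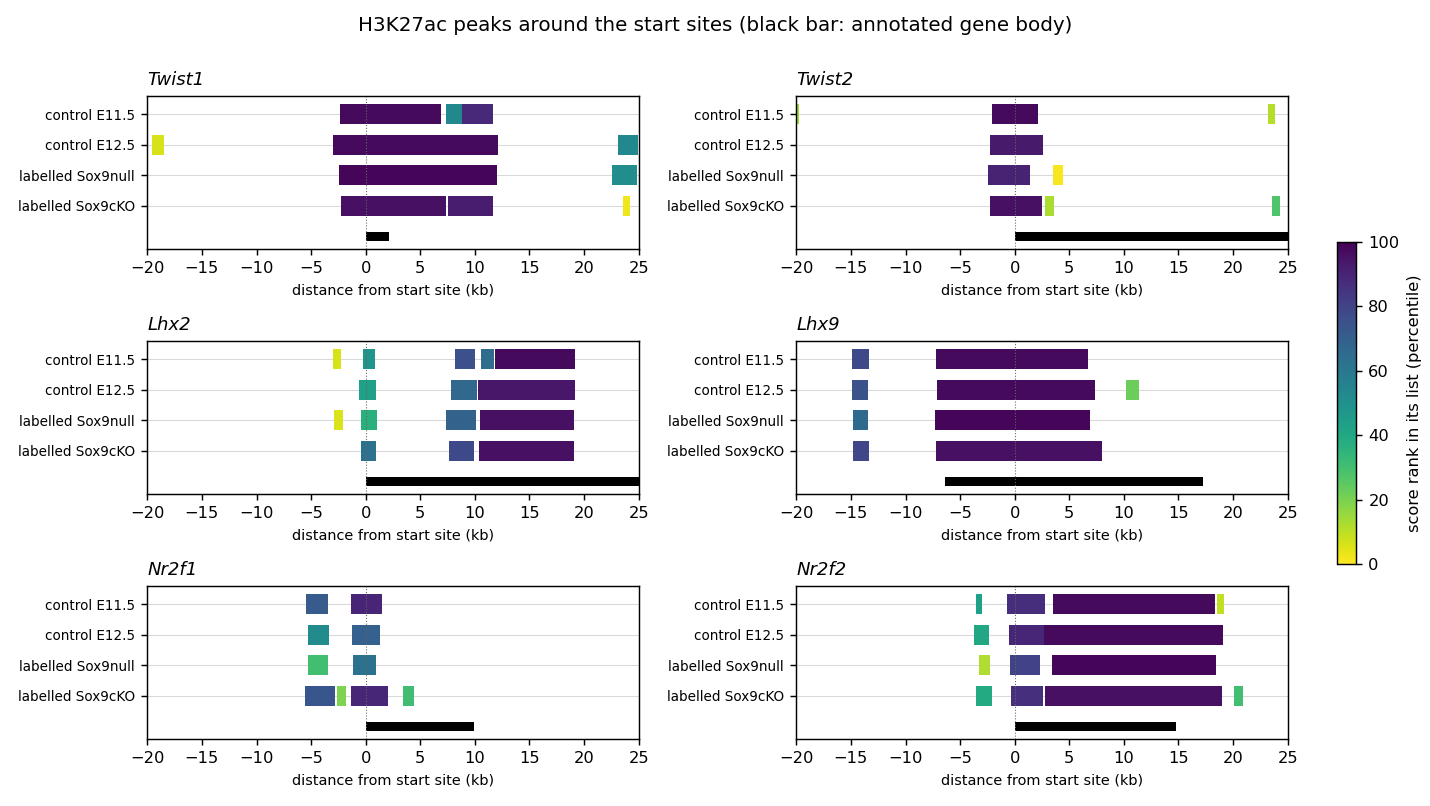
H3K27ac peaks from 20 kb upstream to 25 kb downstream of start site 1 of each gene, 1 line per list. The x axis is distance in kb, positive in the direction of transcription. Colour is the score rank within the list and the black bar is the annotated gene body. Lhx9 and Nr2f2 have broad peaks in every list, the Twist1 peaks are joined in 2 lists and divided in the other 2, and no Nr2f1 start-site peak is wider than 3387 bp.

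Each of the 6 genes was marked at a start site in all 4 lists. At Twist1 (chr12:33957671-33959831, plus strand, 2161 bp), acetylation reached far past the short gene. The merged region chr12:33954656-33969756 is 15101 bp long, and 13492, 15101, 14417 and 13744 bp of it were covered. A single peak spanned it, of 15101 bp in the E12.5 control and of 14417 bp in the Sox9null-labelled list, while the peak over the start was 9193 bp wide in the E11.5 control and 9662 bp wide in the Sox9cKO-labelled list, with further peaks beside it. The score over the start was 3100 in every list, a value shared by many peaks near the top of the scale, and the ranks of 97.4, 97.6, 98.6 and 95.8 differ because the lists hold different shares of peaks at or above that score.

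Twist2 (chr1:91801461-91848034, plus strand, 46574 bp) had a narrower peak over its start, 4210, 4872, 3845 and 4773 bp wide. Its scores were 3100, 2387.03, 1526.67 and 3100, with ranks of 97.4, 93.2, 90.6 and 95.8. The E11.5 control and the Sox9cKO-labelled list thus shared the higher score, and the Sox9null-labelled list had the lowest score and the narrowest peak.

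Lhx2 (chr2:38339271-38369737, plus strand, 30467 bp) has 2 annotated start sites. The peak at start site 1 was 1102, 1570, 1436 and 1426 bp wide, with ranks of 47.9, 43.6, 36.4 and 62.5, near the middle of each list. At start site 2, inside the gene, the peak was 7345, 8892, 8562 and 8734 bp wide, and ranked 97.4, 93.9, 95.9 and 95.8. Most of the start-site acetylation of Lhx2 therefore lay at the internal start, within the region chr2:38349541-38358445. The non-coding gene Gm27197 also has a start in that region or within 1000 bp of it. Gm46736, another non-coding gene, has one at the region of start site 1. Acetylation of Lhx2 and of these genes cannot be told apart there.

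Lhx9 (chr1:138825186-138848839, minus strand, 23654 bp), the closest relative of Lhx2, was covered over its 5′ part by 1 broad peak of 13912, 14522, 14184 and 15176 bp, with a score of 3100 in every list. Its width lay at percentile 99.84 or above in each list, and the widest of the 4 was in the Sox9cKO-labelled list. The peak reached 7130 to 7270 bp upstream of the start site used here, which lies inside the annotated gene, and 6738 to 7950 bp downstream.

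Nr2f1 (chr13:78188971-78198873, minus strand, 9903 bp) had a peak over start site 1. Its widths were 2853, 2618, 2085 and 3387 bp, and its ranks 89.5, 69.2, 62.9 and 89.3. A second region, chr13:78201720-78204412, lay 2.85 kb upstream in the non-coding gene A830082K12Rik, with 2009, 1897, 1799 and 2693 bp covered and ranks of 71.6, 51.7, 30.5 and 73.1. At both regions the E11.5 control and the Sox9cKO-labelled list had the longer and higher-ranked marking, and the E12.5 control and the Sox9null-labelled list the shorter. A830082K12Rik has a start in the region of Nr2f1 start site 1 or within 1000 bp of it, so acetylation of the pair cannot be told apart.

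Nr2f2 (chr7:70351946-70366746, minus strand, 14801 bp) lay under the longest of the merged regions, chr7:70347571-70367477, 19907 bp long, of which 19023, 19558, 17798 and 19166 bp were covered. Its widest peak, over the gene body and beyond its 3′ end, was 14879, 16366, 14996 and 16243 bp, at width percentile 99.866 or above in every list. A separate peak lay over the start site, 3539, 3192, 2802 and 2923 bp wide, with ranks of 86.7, 89.2, 80.5 and 85.9. The non-coding gene B130024G19Rik starts in the same region, so acetylation of the pair cannot be told apart. A further region 2.12 kb upstream had 608, 1416, 951 and 1455 bp.

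Within 20 kb of the gene, the covered length placed 4 of the 6 genes near the top of all protein-coding genes in every list. Nr2f2 had 20.3, 21.0, 18.7 and 22.3 kb, Lhx9 15.4, 17.2, 15.5 and 16.6 kb, Twist1 13.5, 16.2, 14.4 and 13.7 kb, and Lhx2 12.8, 12.8, 13.7 and 12.46 kb. The lowest percentile among these 16 values was 95.2, and the median of all genes was 2.32 to 2.74 kb. For each of these genes the highest list exceeded the lowest by 1.201-fold or less.

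Twist2 and Nr2f1 varied more near the gene, by 2.07-fold and 2.03-fold between the highest and the lowest list. Twist2 had 8.58, 4.87, 5.88 and 10.1 kb, and Nr2f1 had 4.86, 4.51, 3.88 and 7.87 kb. Both were higher in the E11.5 control and the Sox9cKO-labelled list than in the other 2 lists, without overlap. Much of the Twist2 difference lay inside the gene: regions 23.2 and 36.6 kb downstream of the start were marked in the E11.5 control and the Sox9cKO-labelled list and in neither other list. Another region, 42.1 kb downstream, had 1517, 1115 and 2317 bp in the E11.5 control, the Sox9null-labelled list and the Sox9cKO-labelled list and no peak in the E12.5 control. The 4 peaks of the first pair ranked from 11.0015 to 41.8, low in their lists.

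Beyond 20 kb the picture differed by gene. Twist1 had 2.19, 17.2, 13.9 and 2.39 kb, so that the E12.5 control and the Sox9null-labelled list had several times the distal length of the other 2 lists. Of the covered length of its whole window, the E11.5 control had 13.9% in the distal part and the Sox9cKO-labelled list 14.8%, against 51.5% and 49.1% in the other pair. Lhx2 and Lhx9 had more distal length in the same 2 lists, by smaller margins. Lhx2 had 9.28, 17.4, 13.6 and 12.1 kb, and Lhx9 had 5.82, 14.1, 11.1 and 4.55 kb.

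Twist2 had the most distal acetylation of the 6 genes, 24.1, 46.9, 27.1 and 27.3 kb, with the E12.5 control far above the other 3 lists, which lay close together. Nr2f1 and Nr2f2 had little of it. The E11.5 control had 0.559 kb at Nr2f1, the Sox9cKO-labelled list 0.677 kb and the other lists none. Nr2f2 had 1.63, 2.27, 2.05 and 4.12 kb. The 6 genes thus ranged from Nr2f1, whose window was almost empty beyond 20 kb of the gene, to Twist2, for which 73.0% to 90.6% of the covered length was distal.

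**Figure D2:**
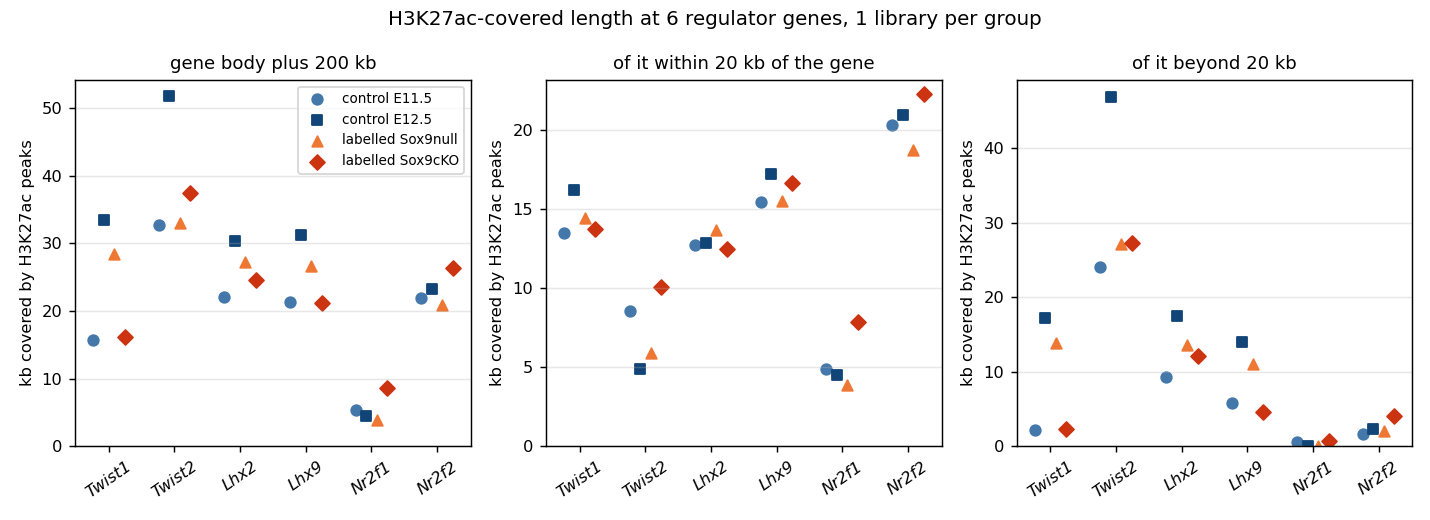
Length covered by H3K27ac peaks (y axis, kb) for each gene in its whole window (left), the part within 20 kb of the gene (middle) and the part beyond (right), 1 point per list and 1 library per list. Twist1 distal coverage is 17.2 and 13.9 kb in the E12.5 control and the Sox9null-labelled list against 2.19 and 2.39 kb in the other 2 lists, while Twist2 stands highest in the E12.5 control alone.

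The distal regions of Twist1 showed the division plainly. Of its 13 regions, 3 were marked in the E12.5 control and the Sox9null-labelled list and in neither other list. They are chr12:33803052-33805494, 152.2 kb upstream, with 2302 and 2437 bp covered in these lists, chr12:33850282-33853679, 104 kb upstream, with 3398 and 1192 bp, and chr12:34048784-34052309, 91.1 kb downstream, with 3277 and 2807 bp. Their ranks were 65.7 and 61.6, 57.4 and 30.5, and 66.3 and 48.1. The last lies in Hdac9, a histone deacetylase gene whose body fills much of that side of the window.

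A further Twist1 region in Hdac9, chr12:34131959-34135222, 174.3 kb downstream, was marked in every list, with 1465, 3132, 2684 and 1071 bp and ranks of 47.1, 67.5, 61.1 and 28.2. The same 2 lists were again the longer ones. A region 22.6 kb downstream was absent from the E11.5 control and had 1822, 2259 and 687 bp in the others. Another 4 regions were in the E12.5 control alone, with ranks from 5.95 to 35.3. Across Hdac9 plus 20 kb on each side the covered length was 27.6, 71.3, 61.3 and 30.6 kb, the same order of lists as for the distal part of Twist1, with which it shares peaks.

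Twist2 had 34 regions, more than any other member, and 9 of them were marked in all 4 lists. A cluster lay 167.5 to 197.6 kb upstream, partly in the non-coding gene Gm28380. Its longest region, chr1:91608916-91615710, had 4089, 6795, 4303 and 3737 bp and ranks of 59.4, 91.3, 78.6 and 60.5. The region farthest upstream crosses the edge of the window, and the part outside is not in the covered lengths. Nearer to the gene, chr1:91756129-91761493, 40.0 kb upstream, had 3167, 5365, 3482 and 2585 bp and ranks of 56.7, 79.3, 49.95 and 55.5. In all 9 shared Twist2 regions the E12.5 control was the longest list.

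On the downstream side of Twist2, in Hdac4, another histone deacetylase gene, chr1:91962290-91966107 had 3517, 3813, 3679 and 3412 bp, with ranks of 78.4, 83.5, 78.8 and 78.1. This region, 160.8 kb from the start, was nearly equal in length in the 4 lists. The window also held the single region of the 92 that was marked in the 2 controls alone, 167.5 kb upstream, with 941 and 1548 bp and ranks of 32.9 and 51.1. Twist1 and Twist2 each held 1 region marked in both deficient lists and in neither control, 197 kb and 2.74 kb downstream, with ranks between 0.899 and 25.6.

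Lhx2 had 21 regions, 8 of them in all 4 lists. These included the start of Dennd1a, 51 kb upstream, with 2047, 1843, 2002 and 1839 bp, and the start of Nek6, 171.9 kb downstream, with 2243, 2687, 2564 and 2385 bp, so part of the distal acetylation of this window belongs to promoters of neighbours. Among the others, chr2:38161225-38164367 in Dennd1a was marked in the E12.5 control alone over 3143 bp, with a rank of 56.7. Regions 195.7 kb upstream and 175.6 kb downstream were in the E12.5 control and the Sox9null-labelled list alone, with 1830 and 1026 bp, and 2564 and 998 bp. The Sox9cKO-labelled list had 5 regions of its own, all inside Nek6 and none with a rank above 30.9.

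Lhx9 had 12 regions, 5 of them in all 4 lists. The start of Dennd1b, 120.4 kb upstream, had 1699, 1736, 1718 and 1716 bp, nearly equal lengths, with ranks of 91.5, 78.6, 71.5 and 83.2. Regions chr1:138672625-138675538 and chr1:138719089-138721952, 166.9 and 120.5 kb downstream, were marked in every list but the one labelled Sox9cKO. The former had 682, 2882 and 1559 bp and the latter 811, 2581 and 2685 bp. A region 56 kb downstream was marked in every list, with 652, 3268, 3040 and 1304 bp. In these 3 regions the E12.5 control and the Sox9null-labelled list had the longer marking.

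Nr2f1 had 5 regions and Nr2f2 had 7. Outside the regions already described, Nr2f1 had 1 region of 711 bp in its neighbour Fam172a, 35.1 kb downstream, with ranks of 5.86 and 3.33 in the E11.5 control and the Sox9cKO-labelled list, and 2 of the Sox9cKO-labelled list alone. Nr2f2 had 1 distal region in all 4 lists, chr7:70513725-70515990, 147 kb upstream, with 1081, 2266, 2054 and 1707 bp. A region 34 kb downstream had 1226 and 1354 bp in the E11.5 control and the Sox9cKO-labelled list and none in the other 2. The Sox9cKO-labelled list had 3 more of its own, with ranks of 20.9 to 31.9.

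**Figure D3:**
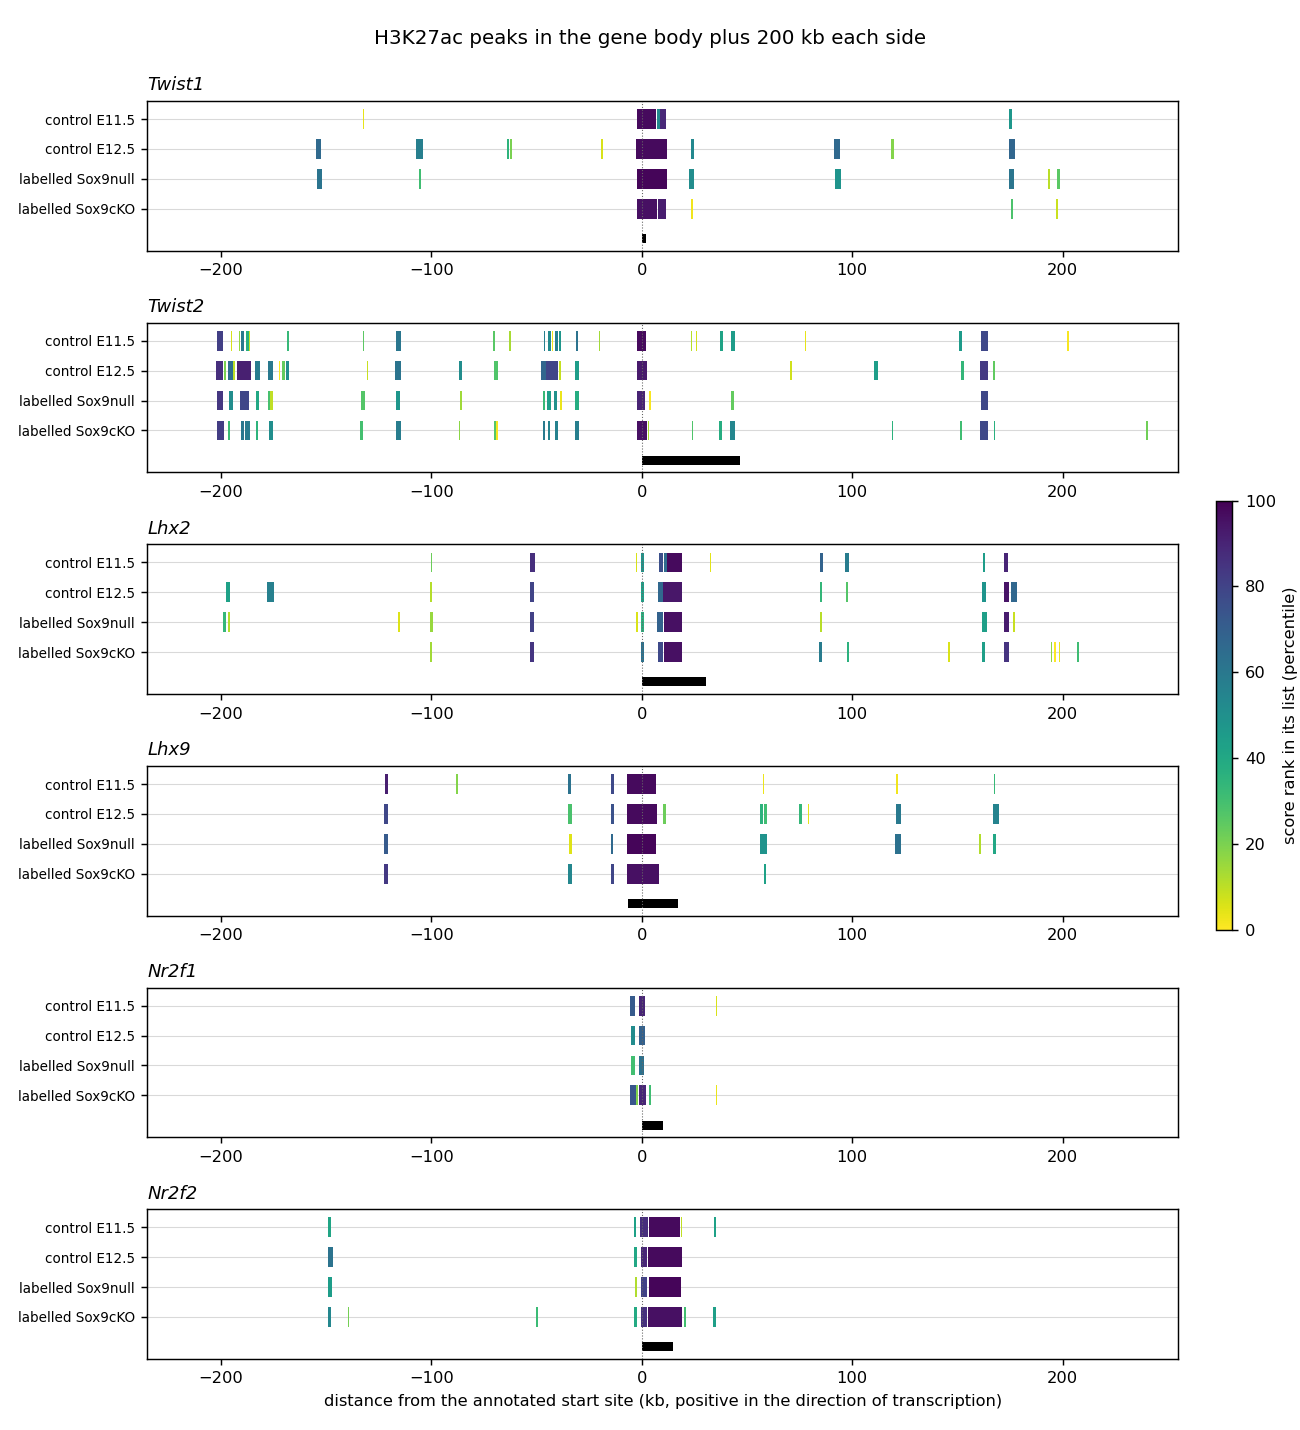
H3K27ac peaks in the whole windows of the 6 genes, up to 200 kb from the gene on either side, 1 line per list; the x axis is distance from the start site in kb, positive in the direction of transcription, colour is the score rank within the list and the black bar is the gene body. Twist1 peaks 152.2 and 104 kb upstream and 91.1 kb downstream appear in the E12.5 control and the Sox9null-labelled list alone, and Twist2 has a cluster 167.5 to 197.6 kb upstream.

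Over the whole windows, the covered length was 15.7, 33.4, 28.3 and 16.1 kb at Twist1, 32.6, 51.8, 32.999 and 37.4 kb at Twist2, 22.0, 30.3, 27.2 and 24.6 kb at Lhx2, and 21.3, 31.3, 26.6 and 21.2 kb at Lhx9. It was 5.42, 4.51, 3.88 and 8.55 kb at Nr2f1 and 21.9, 23.2, 20.8 and 26.4 kb at Nr2f2. The median of all protein-coding genes was 13.2, 14.6, 13.3 and 14.9 kb. Nr2f1 lay below it in every list, between percentiles 21.5 and 32.1, and the other 5 genes above it. Twist2 was the highest of the 6, at percentile 84.9 to 94.8.

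From the E11.5 to the E12.5 control, coverage was higher by 1.5-fold or more at 2 of the 6 genes, against 12.3% of 19638 genes with a peak in either list. Twist1 was covered 2.13-fold and Twist2 1.59-fold as much at E12.5. The ratio was 1.47 at Lhx9, 1.37 at Lhx2, 1.06 at Nr2f2 and 0.833 at Nr2f1, and 0 of the 6 were lower by that fold, against 4.76% of genes. Within 20 kb, 0 were higher (12.4% of genes) and Twist2 alone was lower, with a ratio of 0.568 (11.7% of genes), so its whole-window gain lay in distal regions. The Twist1 ratio was 1.34 with windows of 50 kb, and that of Twist2 was 1.04 with 50 kb, 1.43 with 500 kb and 1.24 when lengths were scaled by list totals, so these calls depend on the window and, for Twist2, on the scaling. In whole limb buds, fewer acetylated cells and less acetylation per cell cannot be told apart, and the E12.5 control had wider peaks throughout (median width 1707 against 1141 bp).

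By label at E11.5, coverage in the Sox9null-labelled list was higher than the control by 1.5-fold or more at 1 of the 6 genes, Twist1 with a ratio of 1.81, against 7.48% of genes, and lower at 0, against 7.07%. The other ratios were 1.25 at Lhx9, 1.24 at Lhx2, 1.01 at Twist2, 0.948 at Nr2f2 and 0.716 at Nr2f1. With 50 kb the Twist1 ratio was 1.24. With the deficient lists exchanged, the Twist1 ratio was 1.03, and Nr2f1 with a ratio of 1.58 was the 1 gene past the fold, against 6.16% higher and 1.17% lower over all genes. Within 20 kb, 0 of the 6 were past the fold by label, against 8.44% of genes higher and 15.1% lower. Exchanged, the ratio within 20 kb was 1.62 at Nr2f1. The remaining exchanged ratios over the whole window were 1.203 at Nr2f2, 1.15 at Twist2, 1.12 at Lhx2 and 0.997 at Lhx9.

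By label at E12.5, coverage in the Sox9cKO-labelled list was lower than the control by 1.5-fold or more at Twist1, with a ratio of 0.483, against 7.32% of genes, and higher at Nr2f1, with a ratio of 1.89, against 9.24%. Ratios were 0.678 at Lhx9, 0.723 at Twist2, 0.812 at Lhx2 and 1.14 at Nr2f2. The Twist1 ratio was 0.801 with 50 kb, and the Nr2f1 ratio was 1.37 with 500 kb and 1.35 with the better-scored 50% of each list. With the lists exchanged, Twist2 with a ratio of 0.638 was the 1 gene past the fold, against 6.17% of genes, and the others lay between 0.849 and 0.899. Higher by that fold were 0 of the 6, against 1.37% of genes. The median over all genes was also lower in the Sox9null-labelled list than in the E12.5 control, 13.3 against 14.6 kb. Near Twist2, within 20 kb, the ratio by label was 2.07 and near Nr2f1 it was 1.74, the 2 of 6 genes higher by the fold there, against 16.8% of genes, and 0 were lower, against 8.36%. Exchanged, the ratio within 20 kb was 1.21 at Twist2 and 0.86 at Nr2f1. These comparisons share their control lists with those above.

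A count that does not depend on the assignment gave no member. In 0 of 6 genes did both deficient lists lie below both controls, against 4.46% of 19793 genes, and in 0 did both lie above, against 13.2%. This depends on the setting. At Twist2 both deficient lists lay below both controls with windows of 50 kb and after scaling, and at Nr2f1 both lay above with 500 kb. For Twist1, Lhx2 and Lhx9, the E11.5 control and the Sox9cKO-labelled list both lay below the other 2 lists, against 21.0% of genes, and for Nr2f1 both lay above, against 28.8%. Twist2 and Nr2f2 were lower in both lists labelled E11.5 than in both labelled E12.5, against 29.8% of genes, and 0 members were higher, against 1.30%. Within 20 kb both deficient lists lay below both controls in 0 members (6.39% of genes) and above in 0 (16.1%). Twist1 and Lhx2 were lower there in the E11.5 control and the Sox9cKO-labelled list than in the other 2 (20.5%), and Twist2 and Nr2f1 higher (27.6%). Lhx9 and Nr2f2 were lower there in both lists labelled E11.5 than in both labelled E12.5 (21.7%), and 0 were higher (3.58%). By label, the difference from the control had opposite signs at the 2 stages in 6 of 6 members, against 67.3% of genes, and in 5 of 6 with the lists exchanged, against 60.7%. The shares for these last pairings are large over all genes, so the members' counts show nothing particular to them.

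Markers of limb position and of other cell types also differed between the lists, in both directions. Tbx5, the forelimb regulator, had 31.7, 3.76, 0 and 32.6 kb within 20 kb of the gene, while Tbx4, a hindlimb regulator, had 29.7, 34.4, 38.1 and 31.9 kb. Of 9 limb mesenchyme markers, Tbx5 alone was at 0 and in the Sox9null-labelled list alone, and their summed length was 212 to 230 kb. Skeletal muscle markers summed to 47.2, 62.5, 63.7 and 57.2 kb, with 3, 6, 5 and 2 of 9 at 0. Myod1 and Actc1 were at 0 in every list, and Pax3 and Myf5 in the E12.5 control and the Sox9null-labelled list. Endothelial markers summed to 24.1, 41.1, 31.1 and 30.3 kb, with 2, 4, 5 and 2 of 9 at 0, Emcn and Sox17 in every list and Tie1 in the E12.5 control and the Sox9null-labelled list. Tal1, a blood and endothelial regulator, had 6.34, 0, 0 and 5.54 kb. Other markers divided the same pairs of lists the other way. Erg, an endothelial factor, had 8.41, 30.4, 19.3 and 12.9 kb, and Ptprc, a pan-leukocyte surface gene, 0.581, 4.97, 6.15 and 2.42 kb. Tnnt3, a muscle troponin gene, had 28.4, 44.1, 44.3 and 30.5 kb. Erg held most of the endothelial sum in the E12.5 control, and Tnnt3 most of the muscle sum in every list. The order of the lists in these sums therefore rests largely on Erg and on Tnnt3. Blood markers summed to 35.3 to 41.0 kb with 1, 3, 3 and 1 of 9 at 0. Ectoderm markers summed to 25.04 to 34.3 kb with 1, 1, 2 and 2 at 0, and nerve and glia markers to 14.9 to 17.0 kb with 3, 4, 4 and 3 at 0. The part of limb type and of cell makeup in the values of the 6 genes was not tested.

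Of the 92 regions, 29 were marked in all 4 lists, 31.5% (Wilson 95% interval 22.9 to 41.6%), beside 40.1% of all regions of the genome. The interval covers counting error and treats neighbouring regions as separate. Within 20 kb of a member the share was 44% of 25 regions, and beyond it 26.9% of 67. Over the genome it was 44.7% within and 26.5% beyond 20 kb of any protein-coding gene. These classes are not alike, because many regions beyond 20 kb of a member lie in a neighbour such as Hdac9, Hdac4, Dennd1a or Nek6. Regions of the E12.5 control alone numbered 13 (14.1%, beside 8.71% of the genome), of which 5 lay at Twist2, 4 at Twist1, 3 at Lhx9 and 1 at Lhx2. Those of the Sox9cKO-labelled list alone numbered 12 (13.04%, beside 12.1%), of which 5 lay at Lhx2, 3 at Nr2f2, 2 at Nr2f1 and 2 at Twist2.

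Regions shared by 2 lists alone were few. The E12.5 control and the Sox9null-labelled list shared 5 (5.43%, beside 3.68% of the genome), 3 at Twist1 and 2 at Lhx2, all beyond 20 kb. This share was 11.3% with equal numbers of peaks per list, 12% where a region had to be covered over 50% of its length, 12.8% in the better-scored 50% of peaks and 0% with windows of 50 kb. The E11.5 control and the Sox9cKO-labelled list shared 4 (4.35%, beside 6.45%), 2 at Twist2 and 1 each at Nr2f1 and Nr2f2. Both controls alone shared 1 (1.09%, beside 1.64%) and both deficient lists alone shared 2 (2.17%, beside 1.15%), with intervals of 0.192 to 5.90% and 0.598 to 7.58%. The 2 lists labelled E12.5 alone shared 1, at Twist2 (1.09%, beside 1.97%), and the 2 labelled E11.5 alone shared 1, at Lhx2 (1.09%, beside 0.632%). Of the rest, 8 were in the E11.5 control alone (8.70%, beside 10.6%) and 4 in the Sox9null-labelled list alone (4.35%, beside 3.26%). Regions missing from a single list numbered 4 for the E11.5 control (beside 2.93%), 3 for the Sox9null-labelled list (beside 3.44%), 3 for the Sox9cKO-labelled list (beside 1.61%) and 2 for the E12.5 control (beside 1.74%).

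**Figure D4:**
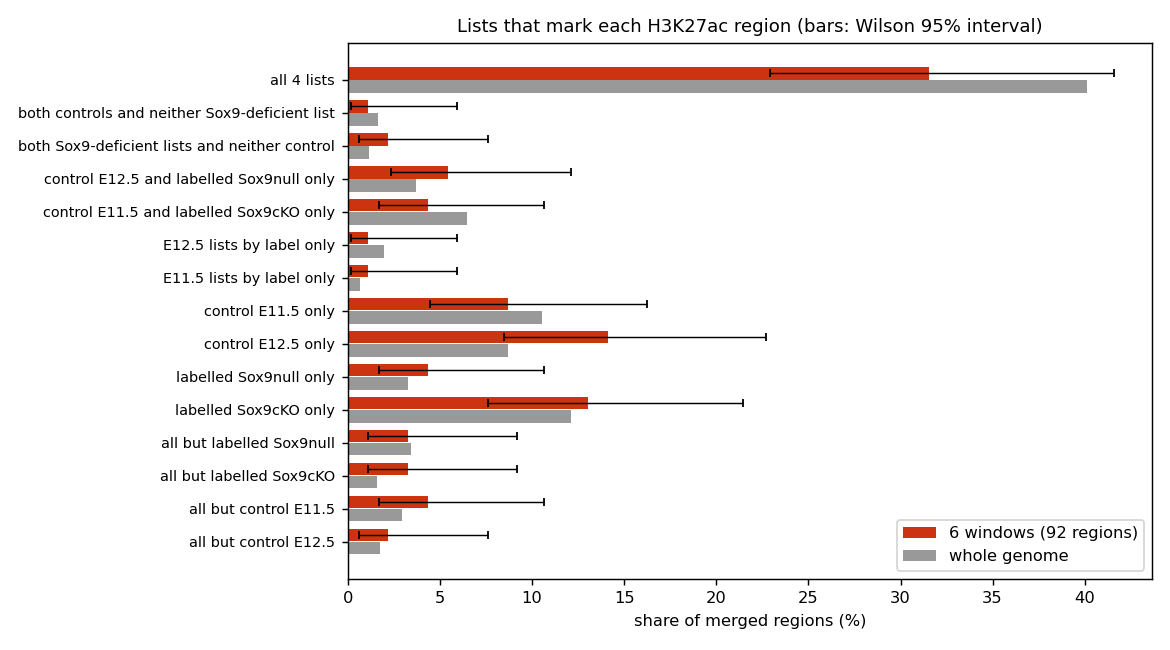
Share of merged H3K27ac regions (x axis, %) marked by each combination of lists, for the 92 regions of the 6 windows and for all regions of the genome; error bars are Wilson 95% intervals of the window shares. Regions in all 4 lists make up 31.5% in the windows and 40.1% in the genome, and those of the E12.5 control alone 14.1% and 8.71%.

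Where a region was marked in all 4 lists, the E12.5 control often held the longest stretch. This measure was chosen after the values were seen. The E12.5 control was longest in 19 of the 29 regions (65.5%), beside 35.6% over the genome, and these were 9 of 9 at Twist2, 3 of 8 at Lhx2, 3 of 5 at Lhx9, 2 of 2 at Twist1, 2 of 3 at Nr2f2 and 0 of 2 at Nr2f1. The Sox9null-labelled list was longest in 3 (10.3%, beside 29.3%), the Sox9cKO-labelled list in 4 (13.8%, beside 26.4%) and the E11.5 control in 3 (10.3%, beside 8.41%).

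Set against the E12.5 control, the Sox9cKO-labelled list was longer in 5 of the 29 regions (17.2%, beside 41.2%) and the Sox9null-labelled list in 4 (13.8%, beside 46.0%). The median differences were -302 bp (genome -90 bp) and -330 bp (genome -26 bp). Both deficient lists were thus shorter than the E12.5 control in most shared regions of these windows, however they are assigned. Against the E11.5 control they were longer in 21 (72.4%, beside 71.9%) and 19 (65.5%, beside 73.2%), with medians of 221 and 272 bp (genome 182 and 243 bp). The E12.5 control itself was longer than the E11.5 control in 24 (82.8%, beside 75.3%), by a median of 593 bp (genome 267 bp). Regions of 1 window are neighbours and are not independent.

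The share of shared regions ranked higher than in the E12.5 control was below that of the genome in the Sox9cKO-labelled list. In the Sox9null-labelled list it was close to that of the genome. In the Sox9cKO-labelled list 14 of the 29 shared regions ranked higher than in the E12.5 control (48.3%, beside 64.0% of the genome). The median difference was -0.97 percentile points (genome 3.66). In the Sox9null-labelled list 8 did (27.6%, beside 31.6%), with a median of -6.48 (genome -2.69). Between the controls 15 ranked higher at E12.5 (51.7%, beside 40.6%), with a median of 0.215 (genome -2.41). Against the E11.5 control, 10 ranked higher in the Sox9cKO-labelled list (34.5%, beside 54.4%) and 11 in the Sox9null-labelled list (37.9%, beside 30.0%). These counts include ties in score. The regions over the starts of Twist1, Lhx9 and Nr2f2 scored 3100 in every list. Those at Twist2 and at Lhx2 start site 2 scored 3100 in both the E11.5 control and the Sox9cKO-labelled list. Ranks of such regions differ only through the share of peaks at or above that score in each list.

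**Figure D5:**
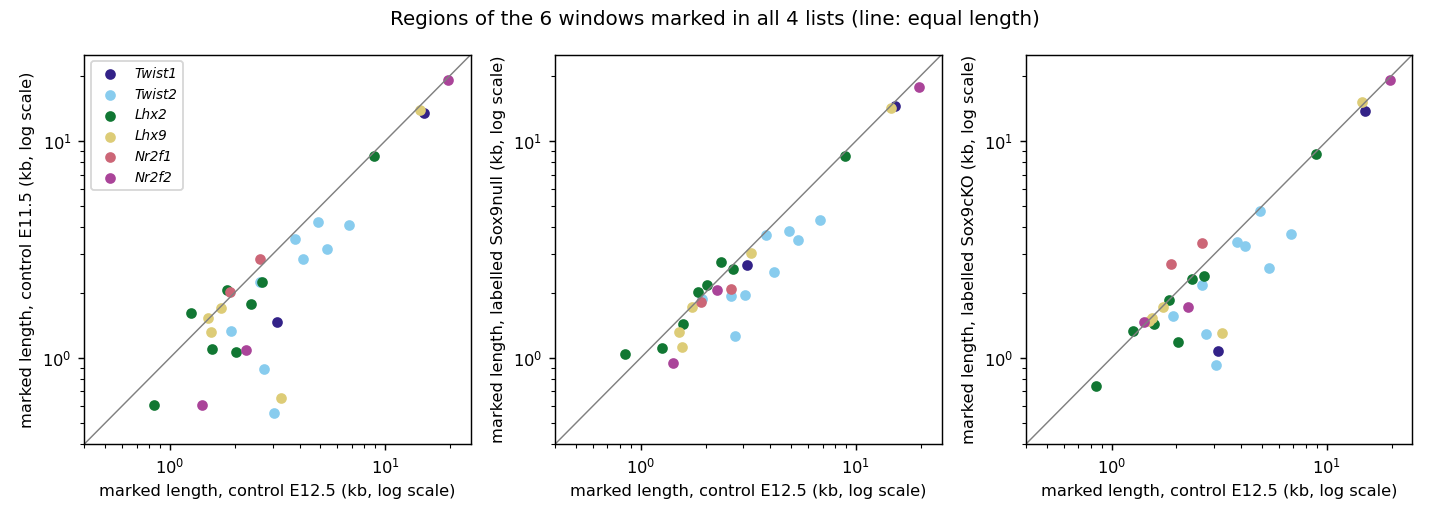
Marked length of the 29 regions found in all 4 lists (kb, log scales), with the E12.5 control on the x axis and the E11.5 control, the Sox9null-labelled list or the Sox9cKO-labelled list on the y axis, 1 point per region coloured by gene; the line marks equal length. The 9 Twist2 regions lie below the line in all 3 plots, and the 2 Nr2f1 regions lie above it for the Sox9cKO-labelled list.

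Partners and relatives of the 6 proteins were described over the gene body plus 20 kb. Among 9 genes for bHLH partners and inhibitors of Twist factors, 1 was higher and 0 lower by 1.5-fold in the E12.5 over the E11.5 control, beside 12.4% and 11.7% of genes. In 3 (Tcf12, Hand1 and Hand2) both deficient lists lay above both controls, beside 16.1%. The limb bHLH gene Hand2 had 27.8, 31.367, 32.3 and 31.407 kb, so the Sox9cKO-labelled list lay above the E12.5 control by a very small margin. Hand1 had 1.53, 2.71, 4.55 and 3.68 kb. Tcf4, an E protein gene, had 37.6, 55.0, 45.3 and 38.4 kb, and the inhibitor gene Id3 had 18.1, 22.9, 19.9 and 19.0 kb.

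Of 19 other LIM homeobox genes and cofactors, of which 17 had a peak in either list, 6 were higher and 2 lower in the Sox9cKO-labelled list over the E12.5 control, beside 16.8% and 8.36% of genes. Lmx1b, the dorsal limb regulator, had 28.5, 37.2, 31.1 and 32.1 kb, Lmx1a 6.77, 5.03, 5.70 and 7.73 kb, the adaptor gene Ldb2 12.53, 22.3, 14.9 and 12.7 kb, and Lmo1 6.30, 4.07, 3.49 and 9.69 kb. Lhx3 and Lhx5 had no peak in any list. Of 13 other NR2 receptors and cofactors, of which 11 had a peak in either list, 1 was higher and 1 lower in that comparison, and 3 and 1 between the controls, beside 12.4% and 11.7% of genes. The retinoid receptor gene Rxra had 16.8, 23.1, 25.8 and 25.8 kb, Bcl11b 16.8, 25.3, 26.5 and 22.5 kb, Bcl11a 15.8, 20.7, 17.1 and 14.7 kb, and Nr2c1 3.76, 5.95, 3.68 and 3.77 kb.

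The genes whose 4 shares of covered length over the 200 kb windows were most like a member's were named by Euclidean distance over the 4 lists. For Twist1 they were Bbip1 (13.7, 31.2, 26.7 and 15.0 kb, distance 0.0111) and Limch1 (0.0162), among 3556 genes of similar total. For Twist2 they were Lonrf2 (27.1, 42.9, 27.1 and 29.6 kb, distance 0.00949) and Farp1. Lhx9 was nearest to Nln and Sgtb, neighbours with the same covered lengths. Nr2f1 was nearest to Asb11 (5.79, 4.995, 4.41 and 9.76 kb) and Tcl1b3 among 1366 genes, and Nr2f2 to Spg7 and Gtf2h1 among 3604. With 4 lists such likeness is common and is given as a description.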

How the data were processed

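Peak lists of 4 H3K27ac libraries, 1 per group, were analysed; the remaining 20 samples (other histone marks, inputs) were not used here. Each deposited list gives the position and a score for every peak; no header says what the score is, so the authors' score served for ranks and filters inside a list alone. Its values run from 50.01 to 3233.06. Peak names in the deposited lists name MACS as the caller, and the submitters' processing notes give build mm10, CASAVA 1.8 and deepTools. Aligner, caller version, caller settings and any use of an input are not given in the sources. Peaks were listed per sample, not pooled. Read depth is unknown and sets how many peaks are called and how wide they are: the lists held 36045, 32821, 28419 and 36937 peaks over 52.0, 66.7, 59.7 and 60.4 Mb, with median widths of 1141, 1707, 1778 and 1332 bp.

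Genes and start sites came from RefSeq tables of the same build. Covered length was the bp under peaks in a window, with peaks cut at its edges. Overlapping or touching peaks of the 4 lists were merged into regions, and a region counted as marked in a list at 1 bp of overlap. Genes were called at a ratio of 1.5, over genes with a peak in either list; there was no test. Scripts (Python 3.11.15, pandas 2.3.3, scipy 1.17.1) were tested on simulated data. The members, gene lists, marker lists and measures were chosen with earlier results of these data known, and the lists' directions support nothing. All 6 members and their window neighbours could be named, from each gene list the 2 largest gains and losses between the mean of the deficient and of the control lists, and for each member the 2 genes of most like coverage (not reported here for Lhx2); Tbx5, Tbx4, Tal1, Erg, Ptprc, Tnnt3, markers at 0, Tcf12 and genes without a peak were named after their values were seen. Alternatives were stricter lists, windows of 50 and 500 kb, merging across 1 kb, marking at 50% of a region's length, scaling to the total of each list, a fold of 2 and the exchanged lists.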

Additional observations from a re-analysis of the deposited data

Results flagged for a closer look

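In all 6 genes the covered length differed from the control in opposite directions at the 2 stages by label, and the difference between the stages was not tested. The Sox9cKO list minus its control at E12.5 was -17.3 kb at Twist1, -14.4 kb at Twist2, -10.1 kb at Lhx9, -5.68 kb at Lhx2, 4.03 kb at Nr2f1 and 3.14 kb at Nr2f2. The Sox9null list minus its control at E11.5 was 12.7, 0.367, 5.36, 5.20, -1.54 and -1.14 kb for the same genes in that order. By label, Twist1, Lhx2 and Lhx9 were thus covered more at E11.5 and less at E12.5, and the Nr2f genes the reverse. Twist2 was nearly equal to its control at E11.5, with a ratio of 1.01 that became 0.835 with 50 kb and 0.881 after scaling. The Nr2f2 ratio at E12.5 also changed side, from 1.14 to 0.869 with 500 kb. Over all genes 67.3% showed opposite signs. With the deficient lists exchanged it was 5 of 6 (60.7% over all genes), with Lhx9 at -0.063 and -4.66 kb the exception, and Nr2f1 and Nr2f2 then had more at E11.5 (3.13 and 4.44 kb) and less at E12.5 (-0.631 and -2.44 kb). Each side of each difference is 1 library.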

How the results depend on the processing

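No paired analysis was possible because each group has 1 library, so the groups compared share fewer than 2 replicate numbers. Of 102 recomputed values of the main counts and shares, 70 stayed close to the value reported, and of 108 recomputed ratios of single genes 90 did. These tallies include values of the controls and of region patterns that exchanging the deficient lists cannot alter. A count also passed as close when its gene changed. Exchanged, the 1 gene higher at E11.5 was Nr2f1 in place of Twist1, and the 1 lower at E12.5 was Twist2 in place of Twist1. The tallies therefore do not measure how well the calls of single genes hold. Of ratios past the fold, 1 changed direction, that of Nr2f1 at E12.5, which was 1.89 by label and 0.86 with the lists exchanged. Ratios within the fold fell on the other side of 1 in 14 more, from 0.716 to 1.58 (exchanged) and 1.13 (500 kb) for Nr2f1 at E11.5 and from 1.24 to 0.888 (better-scored 50%) for Lhx2 there, so directions within the fold are not stable. The cause of the changes was not tested.

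With the better-scored 50% of each list, there were 39 regions in place of 92. Of these 0% were in both controls alone, 0% in both deficient lists alone and 12.8% in the E12.5 control and the Sox9null-labelled list. In that setting Nr2f1 was lower at E11.5 (1 gene), 0 genes were higher at E12.5, and 2 were lower there (Twist1 and Twist2). With the same number of top peaks, 0% were in both deficient lists alone.

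With 50 kb there were 36 regions: 44.4% in all 4 lists, 0% in both controls alone, 0% in the E12.5 control and the Sox9null-labelled list, and 11.1% in the other pair. Then 0 genes were higher between the controls, 0 higher at E11.5 and 0 lower at E12.5, and 1 (Twist2) had both deficient lists below both controls. With 500 kb there were 209 regions, 1 gene (Twist1) was higher between the controls, 0 higher at E12.5, 1 (Nr2f1) had both deficient lists above both controls, and 0 had the E11.5 control and the Sox9cKO-labelled list above the others. Where a region had to be covered over 50% of its length, 22.8% were in all 4 lists.

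With the lists exchanged, 0 genes were higher at E12.5. After scaling, 1 gene (Twist1) was higher and 1 (Nr2f1) lower between the controls, 1 (Nr2f1) was lower at E11.5, 1 (Twist2) had both deficient lists below both controls, and 2 (Nr2f1 and Nr2f2) had the E11.5 control and the Sox9cKO-labelled list above the others. At a fold of 2, 1 gene (Twist1) was higher between the controls, 0 at E11.5 and 0 at E12.5. The depth of the libraries is unknown and limits every count of regions.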
